A study of Mus musculus with 12 samples.

Results

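The 33 genes described here encode components of autophagy and of the lysosome, and were taken by their symbols from a table of 54532 mouse genes. They comprise 7 genes of initiation and the phagophore (Ulk1, Atg13, Atg14, Becn1, Atg9a, Wipi1, Wipi2), 5 of conjugation (Atg3, Atg5, Atg7, Atg12, Atg16l1) and the 5 measured members of the ATG8 family (Map1lc3a, Map1lc3b, Gabarap, Gabarapl1, Gabarapl2). The cargo receptor Sqstm1 and the transcription factors Tfeb and Tfe3 belong to the list too. The remaining 13 are lysosomal, with 3 membrane proteins (Mcoln1, Lamp1, Lamp2), 5 cathepsins (Ctsa, Ctsb, Ctsc, Ctsd, Ctsl) and 5 other proteins of the lumen (Psap, Hexa, Gla, Grn, Lipa). All 33 had a mean of at least 1 FPKM (fragments per kilobase of transcript, scaled to a size set for each library) over the 12 libraries and were among the 9743 genes tested.

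The study sequenced RNA from primary hepatocytes of 6-week-old mice to ask how the stress granule protein G3BP1 bears on the liver disease NASH. The 4 groups had 3 libraries each and are named here HKO_PA, HKO_BSA, Flox_PA and Flox_BSA. HKO stands for a knockout of G3bp1 specific to hepatocytes and Flox for G3bp1-Flox, its control genotype. PA and BSA are the 2 treatments as the labels write them, without spelling them out. The sources used here give no dose, duration or Cre driver, and do not say whether separate mice stand behind the 3 libraries of a group. The p-values therefore measure only the spread between these samples, which may be technical.

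Autophagy encloses cytoplasm, organelles, protein aggregates or lipid droplets in a double membrane that fuses with the lysosome. ULK1 kinase starts the process, the ATG conjugation enzymes attach LC3 and GABARAP proteins to the growing membrane, and receptors such as p62, the product of Sqstm1, tether cargo to them. Cathepsins and glycosidases then degrade the content, and the factors TFEB and TFE3 drive many of these genes by binding a short promoter element named CLEAR. In hepatocytes the pathway is known for its part in the turnover of lipid droplets and mitochondria and in the response to fasting.

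Each library had between 15.02 and 18.42 M reads in genes (M, 10 to the power of 6), and members took 1.03% to 1.45% of them in HKO libraries and 1.74% to 1.90% in Flox libraries. G3bp1 was at 7.03 to 8.09 FPKM in HKO_PA and 7.77 to 8.497 in HKO_BSA, against 38.97 to 41.64 in Flox_PA and 37.74 to 45.72 in Flox_BSA, so the genotype labels held in every library. The share of reads from mitochondrial genes was 5.42% to 8.16% in HKO_PA and 4.1% to 8.20% in HKO_BSA, against 2.21% to 2.40% in Flox_PA and 2.96% to 4.34% in Flox_BSA. The part of this difference in the members' results was not tested. The hepatocyte genes Alb, Apoa1 and Ttr, for plasma proteins, averaged at least 1076 FPKM in every group. The libraries were not equally free of other cells. The summed FPKM of 19 macrophage markers ranged from 147 to 187 in HKO_PA and from 98.5 to 141 in HKO_BSA, against 2215 to 2489 in Flox_PA and 2617 to 2695 in Flox_BSA. The libraries HKO_PA 1 and HKO_BSA 1 stood apart from the others of their groups, with 2.76% and 2.49% of tested genes over 2-fold from the mean of the other two on the log2(FPKM + 1) scale. That share was 0.287% to 0.503% in the other libraries except HKO_PA 3, at 1.28%.

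RefSeq promoters (250 bases before to 50 bases after a start site, build GRCm38.p6) were at hand for 28 of the 33 members, while none was used here for Becn1, Atg12, Atg16l1, Map1lc3a and Ctsb. They were searched for the E-box CACGTG, for its longer form TCACGTGA and for the full CLEAR palindrome, each of which reads the same on both strands and contains the shorter ones. CACGTG was in promoters of 10 of 28 members (35.7%), against 8.09% of the 27025 gene symbols in that table, and TCACGTGA in 5 of 28 (17.9%), against 1.12%. The full CLEAR palindrome was in none of the 28, and in 0.37% of all symbols. These counts describe letters in a window, not sites that a factor binds. The stretches around the matches are shown because TFEB and TFE3 are members themselves, in lower case with CACGTG or TCACGTGA in capitals, 5′ to 3′ along the strand of the gene. Those with TCACGTGA were as follows.
Atg3, chr16:45158710-45158789, plus: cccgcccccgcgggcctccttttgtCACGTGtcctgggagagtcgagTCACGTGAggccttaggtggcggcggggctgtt
Ctsa, chr2:164833735-164833809, plus: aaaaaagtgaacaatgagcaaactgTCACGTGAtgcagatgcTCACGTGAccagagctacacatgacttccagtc
Ctsd, chr7:142387894-142387951, minus: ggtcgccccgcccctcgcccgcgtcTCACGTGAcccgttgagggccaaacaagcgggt
Gla, chrX:134601168-134601255, minus: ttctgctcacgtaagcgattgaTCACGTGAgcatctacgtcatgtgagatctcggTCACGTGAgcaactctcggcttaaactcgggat
Mcoln1, chr8:3500423-3500505, plus: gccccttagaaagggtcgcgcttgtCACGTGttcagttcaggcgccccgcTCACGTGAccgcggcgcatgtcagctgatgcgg

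The other 5 members held CACGTG without the longer form, and the Ctsd promoter held a second CACGTG further from its start. Lamp1 had 4 such hexamers between 61 and 15 bases before its start.
Lamp1, chr8:13159075-13159176, plus: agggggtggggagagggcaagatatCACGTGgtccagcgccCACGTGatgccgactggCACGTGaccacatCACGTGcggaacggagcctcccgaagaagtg
Atg5, chr10:44268300-44268355, plus: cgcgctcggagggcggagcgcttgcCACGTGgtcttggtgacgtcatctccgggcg
Atg7, chr6:114670939-114670994, plus: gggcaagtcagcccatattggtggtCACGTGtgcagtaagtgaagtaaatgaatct
Atg14, chr14:47568405-47568460, minus: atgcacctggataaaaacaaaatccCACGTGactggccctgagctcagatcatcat
Ctsl, chr13:64370726-64370770, minus: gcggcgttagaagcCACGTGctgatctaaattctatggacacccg
The RefSeq start used for a gene can differ from the gene start in the deposited table.

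Levels of the members spanned more than 3 orders of magnitude. The mean over the 12 libraries was at least 100 FPKM for 8 members, between 10 and 100 FPKM for 13 and under 10 FPKM for 12. Sqstm1 was highest, with a mean of 2236 FPKM, followed by Ctsd at 320 FPKM, Gabarap at 255 FPKM and Ctsl at 241 FPKM. Tfeb was lowest at 1.35 FPKM. The fewest reads behind a value of any member were 67, for Tfeb, so counting error weighs most on that gene.

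**Figure D1:**
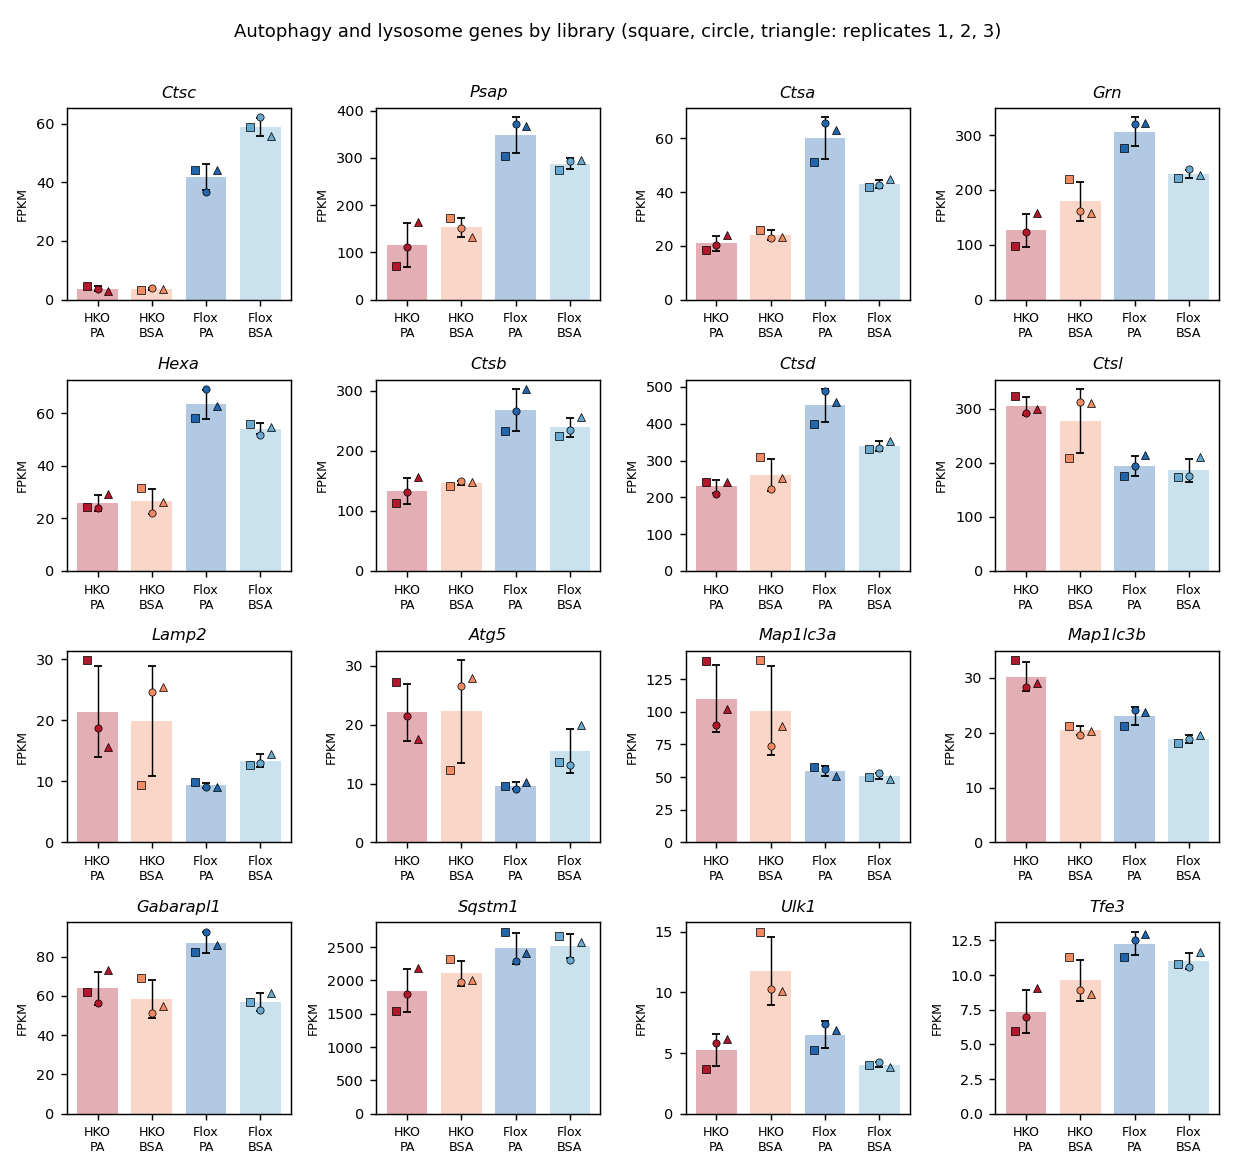
FPKM of members in each library, with groups from HKO_PA on the left to Flox_BSA on the right and 3 points per group. Ctsc lies between 3.07 and 4.50 FPKM in the 6 HKO libraries and between 36.6 and 62.1 FPKM in the 6 Flox libraries, while Sqstm1 stays at or above 1544 FPKM throughout.

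The first question was how loss of G3bp1 bears on the members under each treatment. With BSA, 12 of 33 members differed between HKO and Flox at an adjusted p under 0.05 (limma on log2(FPKM + 1), Benjamini-Hochberg over all genes tested), where 20.5% of all tested genes did. In HKO 4 members were higher, against 9.63% of all genes, and 8 were lower, against 10.8%. With PA, 20 of 33 members differed, where 35.7% of all genes did, with 6 higher (16.9% of all genes) and 14 lower (18.8%). Lumen proteins of the lysosome made up 7 of the 8 genes that fell with BSA and 8 of the 14 that fell with PA, and the ATG8 family 2 of the 4 and 3 of the 6 that rose. The median log2 difference of the members was -0.02 with BSA and -0.29 with PA, beside 0.04 and 0.00 over all tested genes. In HKO, Map1lc3a, Gabarapl2 and Ctsl were higher and Ctsa, Ctsb, Ctsc, Psap, Hexa and Lipa lower under both treatments. With BSA, all 3 HKO libraries lay above all 3 Flox libraries for 7 members, as for 19.7% of all genes, and below them for 13, as for 18%, 37.7% of all genes having no overlap. With PA, they lay above for 8 members and below for 16, each as for 26% of all genes, 52% having no overlap. The 10 members that passed in no comparison were Atg13, Atg14, Becn1, Wipi1, Atg3, Atg12, Atg16l1, Gabarap, Mcoln1 and Lamp1.

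**Figure D2:**
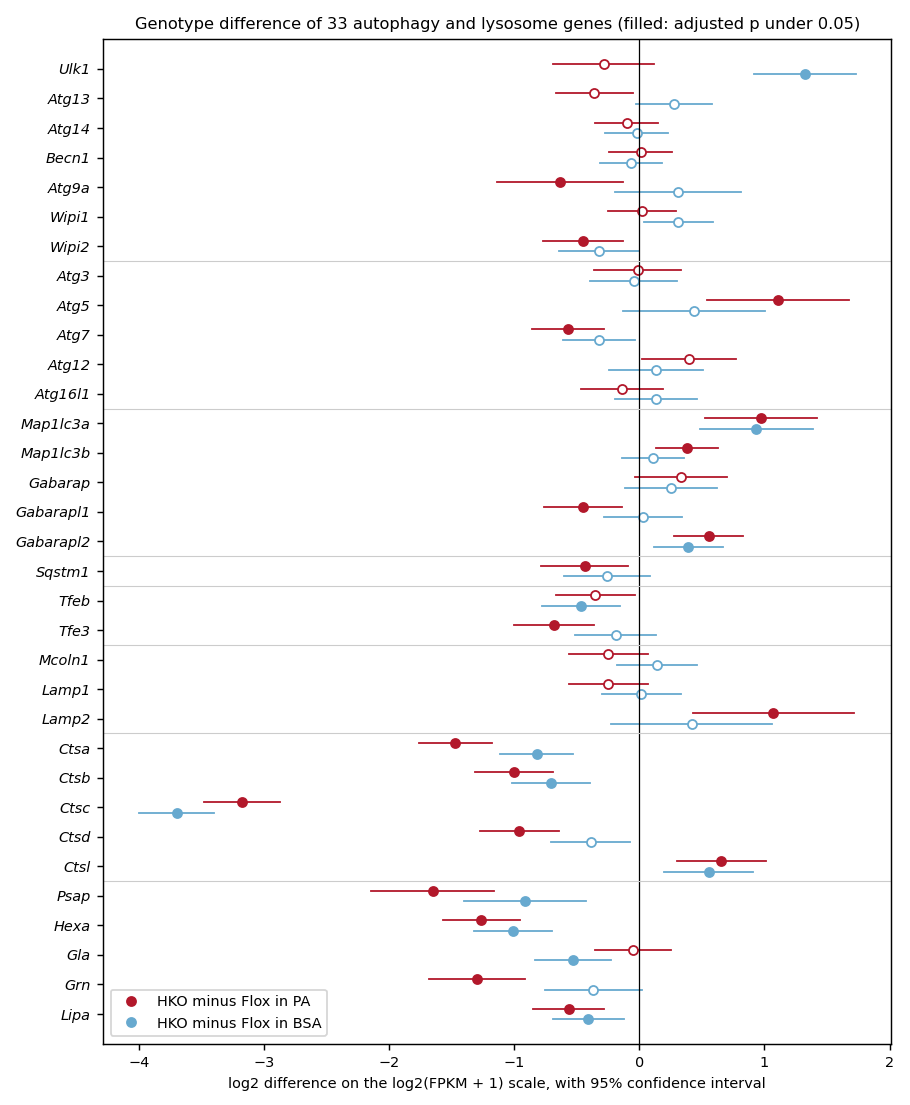
Log2 difference, HKO minus Flox, of each of the 33 members on the log2(FPKM + 1) scale, with PA in red above BSA in blue, bars for the 95% interval and filled points for an adjusted p under 0.05. Grey lines part the roles, and Ctsc lies furthest to the left, at -3.18 with PA and -3.70 with BSA.

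Of the 5 cathepsins, proteases of the lysosomal lumen, 3 fell and 1 rose in HKO with BSA, and 4 fell and 1 rose with PA. Ctsc (chr7:88278085-88310888, plus strand, in the deposited coordinates of build GRCm38) encodes cathepsin C, a dipeptidyl peptidase that activates serine proteases of leukocytes. It measured 4.50, 3.66 and 3.07 FPKM in HKO_PA and 3.25, 4.08 and 3.55 FPKM in HKO_BSA, against 44.2, 36.6 and 44.3 FPKM in Flox_PA and 58.9, 62.1 and 55.9 FPKM in Flox_BSA. Every HKO library lay under every Flox library. The log2 difference was -3.70 (SE 0.14, limma adjusted p = 1.78e-10) with BSA and -3.18 (SE 0.14, adjusted p = 7.82e-10) with PA, the widest of the members under both treatments.

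Ctsa, which encodes cathepsin A, a carboxypeptidase that also protects other lysosomal enzymes, measured 18.6, 20.2 and 24.1 FPKM in HKO_PA and 26.0, 22.8 and 23.3 FPKM in HKO_BSA. Flox libraries gave 51.1, 65.7 and 63.1 FPKM with PA and 41.8, 42.7 and 44.8 FPKM with BSA. The genotypes did not overlap, and HKO was lower by a log2 difference of -0.82 with BSA (SE 0.14, limma adjusted p = 0.000528) and -1.47 with PA (SE 0.14, adjusted p = 1.47e-06). Ctsb, a cysteine protease of broad range, showed the same order, with 113, 130.5 and 155 FPKM in HKO_PA and 142, 149 and 147.5 FPKM in HKO_BSA, against 233, 266 and 303 FPKM in Flox_PA and 224, 235 and 256 FPKM in Flox_BSA. Its log2 difference was -0.70 with BSA (adjusted p = 0.00301) and -1.003 with PA (adjusted p = 0.000144). On the opposite strand, Ctsa overlaps Pltp by 1515 bases and Ctsb overlaps Fdft1 by 774 bases, and whether the authors counted reads by strand is not known here.

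Ctsd encodes cathepsin D, the main aspartic protease of the lysosome. Its libraries gave 241, 209.8 and 240.3 FPKM in HKO_PA and 309, 222 and 252 FPKM in HKO_BSA, against 400.1, 489 and 459 FPKM in Flox_PA and 331, 333.5 and 354 FPKM in Flox_BSA. The groups did not overlap under either treatment, but the difference passed with PA (log2 -0.96, limma adjusted p = 0.000228) and not with BSA (log2 -0.39, adjusted p = 0.0767). Without HKO_BSA 1, the highest library of its group, the BSA value was -0.52 (adjusted p = 0.011).

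Ctsl, the cysteine protease cathepsin L, went the other way from the other cathepsins among the members. It measured 324, 293 and 301 FPKM in HKO_PA and 209.5, 313 and 311 FPKM in HKO_BSA, against 176, 193.5 and 214 FPKM in Flox_PA and 173, 176 and 211 FPKM in Flox_BSA. HKO was higher by 0.65 with PA (limma adjusted p = 0.00846) and by 0.55 with BSA (adjusted p = 0.0298) on the log2 scale. HKO_BSA 1 lay inside the range of Flox_BSA, so the BSA groups overlapped. Under quantile normalization the PA difference was 0.34 (adjusted p = 0.156), and over all alternatives and fits without 1 library the BSA difference ran from 0.31 to 0.78 (adjusted p from 1.58e-06 to 0.243).

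Among the 5 other lumen proteins, 4 fell in HKO with BSA and 4 with PA. Psap encodes prosaposin, the precursor of the saposins that present sphingolipids to hydrolases. It measured 72.1, 111.5 and 164 FPKM in HKO_PA and 173, 152 and 133 FPKM in HKO_BSA, against 305, 372 and 368 FPKM in Flox_PA and 274, 293 and 295 FPKM in Flox_BSA. No HKO library reached the lowest Flox library. HKO was lower by a log2 difference of -1.65 with PA (SE 0.23, limma adjusted p = 9.58e-05) and -0.92 with BSA (SE 0.23, adjusted p = 0.011), the BSA call being lost without HKO_BSA 3 (adjusted p = 0.0521).

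Hexa, the alpha subunit of beta-hexosaminidase, which cleaves gangliosides, gave 24.3, 24.0 and 29.3 FPKM in HKO_PA and 31.4, 22.0 and 26.1 FPKM in HKO_BSA. Flox_PA libraries had 58.1, 69.2 and 62.7 FPKM and Flox_BSA libraries 55.8, 51.6 and 54.6 FPKM. All HKO values lay under all Flox values, with log2 differences of -1.26 with PA (limma adjusted p = 1.4e-05) and -1.01 with BSA (adjusted p = 0.000125).

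Grn encodes progranulin, which is secreted and also matures in lysosomes. It stood at 97.1, 124 and 157 FPKM in HKO_PA and 221, 161 and 157 FPKM in HKO_BSA, against 276, 320.0 and 323 FPKM in Flox_PA and 222, 238 and 227.5 FPKM in Flox_BSA. The PA difference was -1.30 on the log2 scale (limma adjusted p = 9.68e-05). The BSA difference of -0.37 did not pass (adjusted p = 0.177), and without HKO_BSA 1 it was -0.53 (adjusted p = 0.0415). Lipa, lysosomal acid lipase, which hydrolyses cholesteryl esters and triglycerides delivered to the lysosome, averaged 16.3 ± 0.986 FPKM in HKO_PA and 18.2 ± 2.43 FPKM in HKO_BSA, against 24.5 ± 1.52 FPKM in Flox_PA and 24.5 ± 2.55 FPKM in Flox_BSA (SD, n = 3 each). It fell by a log2 difference of -0.56 with PA (adjusted p = 0.00529) and -0.41 with BSA (adjusted p = 0.0433), the BSA call being lost in 4 of 6 fits without 1 library. Gla, alpha-galactosidase A, was lower in HKO with BSA (log2 -0.53, adjusted p = 0.0171, but 0.0777 without Flox_BSA 3) and did not pass with PA (log2 -0.05, adjusted p = 0.811).

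Between HKO and Flox, macrophage markers went the same way as most of these lumen genes, though not as Ctsl. All 19 markers tested were lower in HKO under both treatments, with a median log2 difference of -4.23 with BSA and -3.65 with PA. Among those that define Kupffer cells, the resident macrophages of the liver, Clec4f averaged 0.974 FPKM in HKO_PA and 0.637 FPKM in HKO_BSA, against 14.1 FPKM in Flox_PA and 13.5 FPKM in Flox_BSA. Timd4 averaged 0.199 FPKM in HKO_PA and 0.196 FPKM in HKO_BSA, against 7.15 FPKM in Flox_PA and 10.8 FPKM in Flox_BSA. Over the same libraries the summed FPKM of the 10 cathepsin and other lumen members was lower in HKO too, the 5 cathepsins summing to 657 to 724 FPKM in HKO_PA and 689 to 738 FPKM in HKO_BSA, against 904 to 1084 FPKM in Flox_PA and 829 to 922 FPKM in Flox_BSA. Between PA and BSA the sums did not go together. In Flox libraries the marker sum was 2215 to 2489 FPKM with PA, against 2617 to 2695 with BSA. The 5 other lumen members there summed to 667 to 790 FPKM with PA, against 578 to 612.5 with BSA. In HKO libraries the marker sum was 147 to 187 FPKM with PA, against 98.5 to 141 with BSA. Those 5 members summed to 214 to 372 FPKM, against 339 to 443. Macrophages also express cathepsins, progranulin and prosaposin. The part of the macrophage signal in the differences of the lumen genes was not tested, and in these bulk libraries fewer cells of a type and less RNA per cell cannot be told apart.

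**Figure D3:**
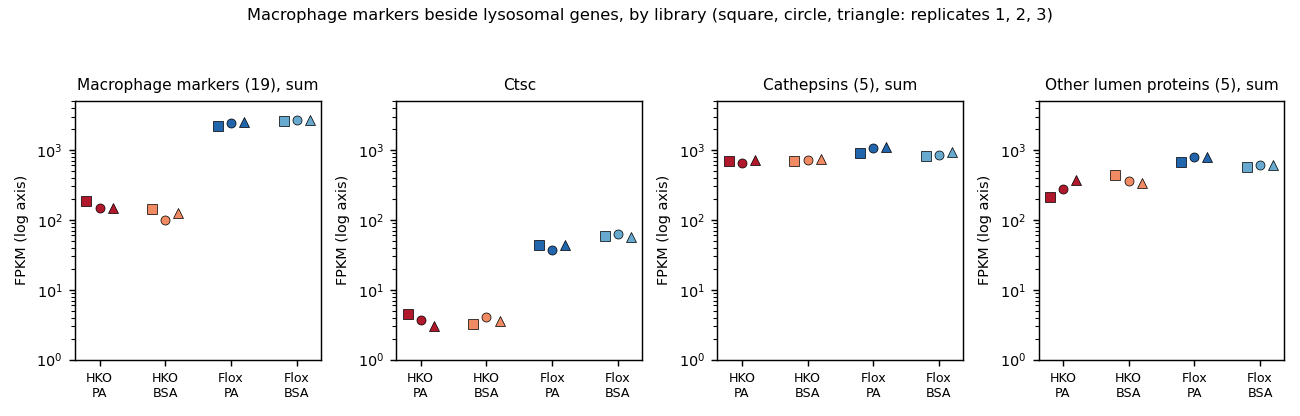
Summed FPKM of the 19 macrophage markers and of lysosomal members in each library (log axis), with groups from HKO_PA on the left to Flox_BSA on the right. The marker sum is between 98.5 and 187 FPKM in HKO libraries and between 2215 and 2695 FPKM in Flox libraries.

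Markers of other cell types differed too. Both neutrophil markers tested were lower in HKO, with a median log2 difference of -3.18 with PA and -2.91 with BSA, and the 6 on that list summed to 0.396 to 0.738 FPKM in HKO_PA and 0.208 to 0.514 FPKM in HKO_BSA, against 19.6 to 25.8 FPKM in Flox_PA and 17.3 to 21.5 FPKM in Flox_BSA. Of 5 endothelial markers tested, 1 was lower in HKO with PA and 4 with BSA. Of 2 cholangiocyte markers tested, both were higher in HKO with PA and 1 with BSA, the 5 on that list summing to 16.1 to 28.2 FPKM in HKO_PA and 14.1 to 22.6 FPKM in HKO_BSA, against 9.55 to 10.3 FPKM in Flox_PA and 12.1 to 13.2 FPKM in Flox_BSA. Of 10 hepatocyte markers, 6 were higher in HKO with PA and 4 with BSA, and their summed FPKM ranged from 12020 to 21510 in HKO_PA and from 11060 to 21320 in HKO_BSA, against 7957 to 8726 in Flox_PA and 8407 to 9259 in Flox_BSA. None of the 9 stellate cell and 6 lymphocyte markers reached 1 FPKM on average. The part of these cell types in the members' differences was not tested.

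Of the 3 membrane proteins, 1 passed, with PA. Lamp2, whose product lines the lysosome and serves in its fusion with autophagosomes, measured 29.9, 18.7 and 15.7 FPKM in HKO_PA and 9.46, 24.6 and 25.5 FPKM in HKO_BSA, against 9.86, 9.14 and 9.002 FPKM in Flox_PA and 12.6, 13.0 and 14.6 FPKM in Flox_BSA. HKO_PA lay above Flox_PA in all libraries (log2 1.07, SE 0.30, limma adjusted p = 0.0144), a call lost without HKO_PA 1 (adjusted p = 0.0696). With BSA, HKO_BSA 1 lay below every Flox_BSA library and the other two lay above them all. That difference was 0.42 (adjusted p = 0.371), and 0.86 without HKO_BSA 1 (adjusted p = 0.0087).

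Lamp1, the other abundant lysosomal membrane glycoprotein, averaged 192.5 ± 18.3 FPKM in HKO_PA and 209 ± 23.9 FPKM in HKO_BSA, against 229 ± 28.2 FPKM in Flox_PA and 207 ± 23.1 FPKM in Flox_BSA (SD, n = 3 each). It passed in no comparison, with a 95% interval for HKO minus Flox of -0.56 to 0.07 with PA and -0.30 to 0.33 with BSA on the log2 scale. With limma-voom, whose scaling lowered the median of all genes to -0.16, the PA value was -0.41 (adjusted p = 0.0408), and with quantile normalization -0.51 (adjusted p = 0.0277). Lamp1 overlaps Grtp1 on the opposite strand by 3317 bases. Mcoln1, the lysosomal calcium channel TRPML1 that acts upstream of TFEB, measured 6.57, 5.95 and 7.66 FPKM in HKO_PA and 10.02, 6.78 and 7.27 FPKM in HKO_BSA, against 7.21, 8.79 and 8.48 FPKM in Flox_PA and 7.20, 7.0 and 7.03 FPKM in Flox_BSA. The groups overlapped in both genotype comparisons, and the 95% interval was -0.57 to 0.07 with PA and -0.18 to 0.46 with BSA. With limma-voom its PA value was -0.44 (adjusted p = 0.0484).

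Both transcription factors had lower means in HKO, each passing under 1 treatment. Tfeb measured 1.09, 0.782 and 1.22 FPKM in HKO_PA and 1.51, 0.761 and 0.807 FPKM in HKO_BSA, against 1.32, 1.82 and 1.61 FPKM in Flox_PA and 1.85, 1.78 and 1.67 FPKM in Flox_BSA. No HKO library reached the Flox libraries of its treatment, and the log2(FPKM + 1) difference was -0.47 with BSA (limma adjusted p = 0.0353) and -0.35 with PA (adjusted p = 0.0739). Tfe3 measured 6.00, 7.01 and 9.04 FPKM in HKO_PA and 11.3, 8.92 and 8.61 FPKM in HKO_BSA, against 11.3, 12.6 and 13.0 FPKM in Flox_PA and 10.8, 10.6 and 11.7 FPKM in Flox_BSA. It fell with PA (log2 -0.68, adjusted p = 0.00354), where the groups did not overlap, and the BSA value was -0.19 (adjusted p = 0.426). The Tfeb call with BSA was lost in 5 of the 6 fits that left out 1 library, whereas the Tfe3 call with PA was kept in all 6. The Tfeb difference with PA came to pass with limma-voom (log2 -0.80, adjusted p = 0.0224) and with array weights per gene (log2 -0.51, limma adjusted p = 0.00117). It also passed without both HKO libraries numbered 1 (log2 -0.38, limma adjusted p = 0.0337).

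In the ATG8 family, whose products coat the autophagosome membrane, 2 of 5 genes rose in HKO with BSA, and with PA 3 rose and 1 fell. Map1lc3a, one of the LC3 genes, measured 139, 89.6 and 102 FPKM in HKO_PA and 139.5, 73.9 and 89.3 FPKM in HKO_BSA, against 57.4, 56.3 and 50.5 FPKM in Flox_PA and 50.1, 52.9 and 48.4 FPKM in Flox_BSA. Every HKO library exceeded every Flox library, by log2 differences of 0.97 with PA (SE 0.21, limma adjusted p = 0.00317) and 0.94 with BSA (SE 0.21, adjusted p = 0.00532). Both libraries that stood apart, HKO_PA 1 and HKO_BSA 1, were the highest of their groups.

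Map1lc3b, the most studied LC3 gene, gave 33.2, 28.4 and 29.1 FPKM in HKO_PA and 21.3, 19.6 and 20.4 FPKM in HKO_BSA, against 21.2, 24.1 and 23.8 FPKM in Flox_PA and 18.2, 18.9 and 19.6 FPKM in Flox_BSA. HKO_PA was above all other groups, with no overlap. The genotype difference passed with PA (log2 0.38, limma adjusted p = 0.0215; lost in 3 of 6 fits without 1 library and with limma-voom) and not with BSA (log2 0.11, adjusted p = 0.569). Gabarapl2, also named GATE-16, averaged 85.4 ± 6.58 FPKM in HKO_PA and 74.7 ± 3.29 FPKM in HKO_BSA, against 57.8 ± 2.19 FPKM in Flox_PA and 57.1 ± 8.11 FPKM in Flox_BSA (SD, n = 3 each), higher in HKO by 0.56 with PA (adjusted p = 0.00493) and 0.39 with BSA (adjusted p = 0.0458). The BSA call of Gabarapl2 was lost in 4 of 6 fits without 1 library and in 6 of 12 other alternatives, with values between 0.22 and 0.49.

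Gabarapl1 was the family member that fell. It measured 62.1, 56.4 and 73.2 FPKM in HKO_PA and 69.3, 51.3 and 54.8 FPKM in HKO_BSA, against 82.5, 92.8 and 85.9 FPKM in Flox_PA and 56.8, 52.6 and 61.6 FPKM in Flox_BSA. The difference was -0.45 with PA (limma adjusted p = 0.0283), where all HKO libraries lay below, and 0.03 with BSA (adjusted p = 0.923), where the groups overlapped. The PA call was lost in 4 of 6 fits without 1 library (adjusted p up to 0.103). Gabarap, the most abundant member of the family, had 396, 264 and 262 FPKM in HKO_PA and 302, 216.5 and 253 FPKM in HKO_BSA, against 241, 252 and 226 FPKM in Flox_PA and 215, 216 and 212 FPKM in Flox_BSA. HKO libraries lay above the Flox libraries of the same treatment, but the differences of 0.33 with PA (adjusted p = 0.143) and 0.25 with BSA (adjusted p = 0.347) did not pass.

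Sqstm1 encodes p62, which binds ubiquitin and LC3 and is itself degraded by autophagy. It had 1544, 1800 and 2185 FPKM in HKO_PA and 2328, 1979 and 2008 FPKM in HKO_BSA, against 2733, 2293 and 2413 FPKM in Flox_PA and 2662, 2311 and 2582 FPKM in Flox_BSA. With PA all HKO libraries were lower (log2 -0.44, limma adjusted p = 0.0477), a call kept in 1 of 6 fits that left out 1 library. With BSA the groups overlapped (log2 -0.26, adjusted p = 0.295).

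Among the initiation and phagophore genes, Ulk1 (chr5:110784488-110810097, minus strand) stood out by its dependence on treatment. This kinase gene measured 3.71, 5.80 and 6.15 FPKM in HKO_PA and 15.0, 10.3 and 10.1 FPKM in HKO_BSA, against 5.24, 7.38 and 6.94 FPKM in Flox_PA and 3.98, 4.28 and 3.86 FPKM in Flox_BSA. HKO_BSA lay above every other library. HKO was higher by 1.32 with BSA (SE 0.19, limma adjusted p = 0.00013), and the PA difference was -0.29 (adjusted p = 0.251), with overlapping groups. The Ulk1 call with BSA held in all 6 fits without 1 library and in all 12 other alternatives run on it.

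The other initiation genes moved less. With PA, Atg9a, a membrane protein that supplies the phagophore (log2 -0.64, limma adjusted p = 0.0483), and Wipi2, which recruits the conjugation machinery (log2 -0.45, adjusted p = 0.0308), were lower in HKO, and each call was lost in 4 of 6 fits without 1 library. Atg9a overlaps Ankzf1 on the opposite strand by 46 bases. Atg13, Atg14, Becn1 and Wipi1 did not pass, with values between -0.36 and 0.31. Becn1, the Beclin 1 gene of the lipid kinase complex, had 95% intervals of -0.24 to 0.26 with PA and -0.32 to 0.18 with BSA.

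Of the conjugation genes, Atg5 and Atg7 changed with PA, in opposite directions. Atg5, whose product joins ATG12 in the complex that lipidates LC3, measured 27.2, 21.5 and 17.6 FPKM in HKO_PA and 12.3, 26.5 and 28.0 FPKM in HKO_BSA, against 9.55, 9.03 and 10.3 FPKM in Flox_PA and 13.6, 13.1 and 19.9 FPKM in Flox_BSA. HKO_PA lay above Flox_PA throughout (log2 1.11, SE 0.26, limma adjusted p = 0.00593). HKO_BSA 1 lay under all Flox_BSA libraries and the other two above them, giving 0.43 (adjusted p = 0.285), and 0.80 without HKO_BSA 1 (adjusted p = 0.00987). Atg7, the activating enzyme of the pathway, averaged 7.47 ± 1.08 FPKM in HKO_PA, against 11.5 ± 1.28 FPKM in Flox_PA (SD, n = 3 each), and was lower by a log2 difference of -0.57 (adjusted p = 0.00573). Atg3, Atg12 and Atg16l1 did not pass, with differences between -0.14 and 0.40.

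Of the calls in HKO against Flox, 6 of 12 with BSA (Ulk1, Map1lc3a, Ctsa, Ctsb, Ctsc and Hexa) and 13 of 20 with PA held in every alternative run and in every fit without 1 library. Leaving out both libraries that stood apart, HKO_PA 1 and HKO_BSA 1, gave 19 members called with BSA, 7 higher and 12 lower in HKO. Of all genes, 36.7% were then called with BSA. With PA, 18 members were called, where 3668 of 9743 genes were.

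The second question was what PA did within each genotype. In HKO libraries 1 member rose with PA, against 1.68% of all genes, and 1 fell, against 1.25% (2.94% in either direction). Map1lc3b rose (log2 0.54, SE 0.11, limma adjusted p = 0.0238) and Ulk1 fell (log2 -1.04, SE 0.19, adjusted p = 0.0101), both without overlap between HKO_PA and HKO_BSA. The Ulk1 call was kept in all 6 fits without 1 library and the Map1lc3b call in 2. In a fit of the 6 HKO libraries alone neither passed (adjusted p = 0.121 for Ulk1 and 0.311 for Map1lc3b). The median of the members was -0.04, beside 0.00 over all genes. All HKO_PA libraries lay above HKO_BSA for 3 members and below for 2, each direction holding 9.1% of all genes and both 18.2%.

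In Flox libraries Gabarapl1 was the single member to pass with PA (log2 0.60, SE 0.14, limma adjusted p = 0.0491), where 1.29% of all genes rose and 0.913% fell, 2.21% in all. That call was lost in all 6 fits without 1 library. The median of the members was 0.14, beside 0.02 over all genes. Flox_PA lay above Flox_BSA without overlap for 13 members, as for 22.1% of all genes, and below it for 4, as for 16.9%, 39% having no overlap. These include Ctsa (log2 0.46, adjusted p = 0.119), Ctsd (log2 0.40, adjusted p = 0.209), Grn (log2 0.41, adjusted p = 0.288), Ulk1 (log2 0.57, adjusted p = 0.167) and Atg7 (log2 0.43, adjusted p = 0.138) on the higher side. Atg5 (log2 -0.62, adjusted p = 0.28), Lamp2 (log2 -0.48, adjusted p = 0.444) and Ctsc (log2 -0.49, adjusted p = 0.101) were on the lower side.

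That count depended on which libraries entered the fit. A fit of the 6 Flox libraries alone called 10 members, with Ulk1, Atg13, Atg7, Gabarapl1, Ctsa, Ctsd and Grn higher and Atg5, Lamp2 and Ctsc lower with PA, where 15.8% of all genes were called. Within the same Flox libraries 3 of 19 macrophage markers were lower with PA in the joint fit, Vsig4 (log2 -0.93), Mpeg1 (log2 -0.66) and Timd4 (log2 -0.55), and in HKO libraries 3 were higher, Marco (log2 0.95), Fcer1g (log2 0.92) and Lyz2 (log2 0.65). Their part in the PA differences of the members was not tested.

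**Figure D4:**
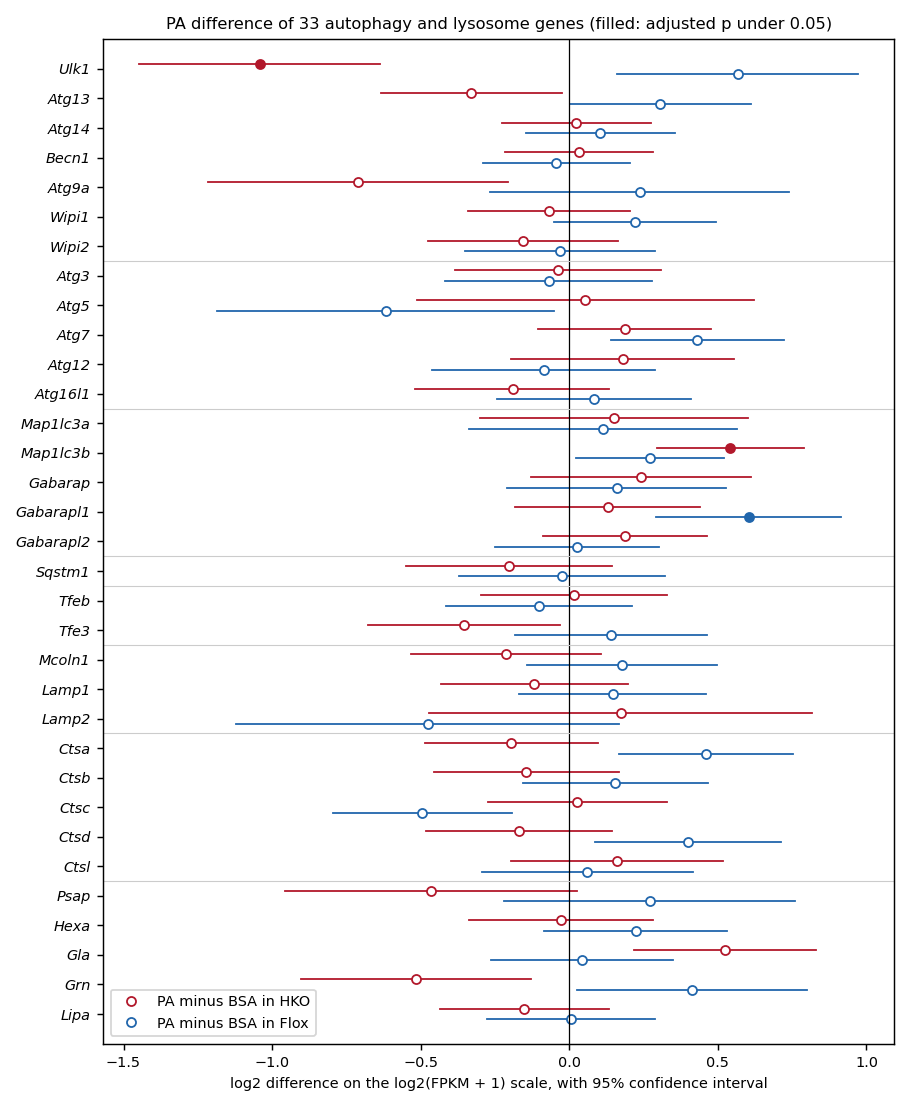
Log2 difference, PA minus BSA, of each of the 33 members on the log2(FPKM + 1) scale, with HKO in red above Flox in blue, bars for the 95% interval and filled points for an adjusted p under 0.05. Ulk1 lies at -1.04 in HKO and at 0.57 in Flox, the widest gap between the genotypes.

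The difference between the PA effects of the genotypes was tested as an interaction, the PA effect in HKO minus that in Flox. Of the 33 members 1 passed, with a negative value, where 0.164% of all genes passed with a positive and 0.103% with a negative one, 0.267% in all. It was Ulk1, with -1.61 (SE 0.27, limma adjusted p = 0.0234), lower with PA in HKO and higher in Flox. Its adjusted p ranged from 0.000314 to 0.196 over the alternatives and fits without 1 library, and the call was lost in 7 of the 12 fits that left out 1 library, while the value stayed between -1.85 and -1.25. The members' median was -0.18, beside 0.02 over all genes, and 20 of 33 had a negative value. Grn (-0.93, adjusted p = 0.119), Psap (-0.74, adjusted p = 0.265) and Ctsa (-0.66, adjusted p = 0.137) were among those that did not pass, so a wider genotype difference with PA than with BSA was not shown for them.

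Genes of the same pathways outside the 33 were counted in the same fit. Of 34 other lysosomal hydrolases and lumen proteins tested, 1 was higher and 8 lower in HKO with BSA, and 2 were higher and 19 lower with PA. That is 26.5% called with BSA, against 20.5% of all tested genes, and 61.8% with PA, against 35.7%. Lgmn, the asparaginyl endopeptidase legumain, averaged 28.9 ± 6.25 FPKM in HKO_PA and 29.1 ± 3.01 FPKM in HKO_BSA, against 129.9 ± 19.2 FPKM in Flox_PA and 110.4 ± 8.05 FPKM in Flox_BSA (SD, n = 3 each), with log2 differences of -2.14 with PA (limma adjusted p = 2.04e-07) and -1.89 with BSA (adjusted p = 7.12e-07). Npc2, a carrier of cholesterol in the lumen, was lower with BSA (log2 -1.14). With PA, the next 2 in size were the alpha-mannosidase Man2b1 (log2 -1.54) and the acid alpha-glucosidase Gaa, which degrades lysosomal glycogen (log2 -1.23). The median over the list was -0.53 with PA and -0.14 with BSA.

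Of 16 subunits of the vacuolar ATPase, the proton pump that acidifies the lysosome, 2 were lower in HKO with BSA, and 2 were higher and 4 lower with PA. The shares called, 12.5% with BSA and 37.5% with PA, were below and near those of all genes, 20.5% and 35.7%. Atp6v1b2 was lower under both treatments (log2 -0.95 with PA and -1.20 with BSA), as was Atp6v0a1 with PA (log2 -1.08) and Atp6v1a with BSA (log2 -0.68), while Atp6v1e1 was higher with PA (log2 0.92). Of 15 other membrane proteins, 2 were lower with BSA (13.3% called) and 1 was higher and 5 lower with PA (40% called), among them the cation channel Tpcn2 (log2 -1.31 with PA and -0.91 with BSA) and the chloride transporter Clcn7 (log2 -1.24 with PA). Slc29a3, a nucleoside transporter, was lower with BSA (log2 -0.61), and Slc36a1, an amino acid transporter, with PA (log2 -0.71).

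Lists of autophagy genes outside the 33 were counted likewise, and their shares called lay near or under those of all genes, 20.5% with BSA and 35.7% with PA. Of 22 other core genes tested, 1 was lower with BSA (4.55% called), and 2 were higher and 3 lower with PA (22.7% called). The widest with PA were Tmem41b, a lipid scramblase of the endoplasmic reticulum (log2 1.18), Atg2a, which transfers lipid to the phagophore (log2 -0.82), and Ambra1, a scaffold of the Beclin 1 complex (log2 -0.68). Snap29, a SNARE of autophagosome fusion, was the one with BSA (log2 -0.49). Of 17 other receptors, 1 was higher and 3 lower with BSA (23.5% called), and 3 were higher and 2 lower with PA (29.4% called). Wdfy3, an adaptor for aggregates, was lower under both (log2 -0.96 with PA and -0.59 with BSA). With PA it was followed by the mitophagy receptor Fundc1 (log2 0.88) and by Tollip (log2 -0.62), and with BSA Nbr1, a relative of p62 (log2 -0.67), and the mitophagy kinase Pink1 (log2 0.54) stood beside it.

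Of 23 genes of mTORC1, its Rag and TSC regulators and AMPK, 4 were lower with BSA (17.4% called), and 3 were higher and 6 lower with PA (39.1% called), against 20.5% and 35.7% of all genes. Fnip2, a partner of folliculin, was lower under both (log2 -0.76 with PA and -0.71 with BSA). Folliculin itself, Flcn, was lower with PA (log2 -0.76) and Lamtor4, a subunit of the Ragulator, higher (log2 0.75), while the sestrins Sesn1 (log2 -0.68) and Sesn2 (log2 -0.54) were lower with BSA. Of 18 sorting and fusion genes, 1 was higher and 2 lower with BSA (16.7% called), and 1 was higher and 5 lower with PA (33.3% called). Plekhm1, an adaptor of fusion with the lysosome (log2 -1.18), Plekhm2 (log2 -0.94) and the HOPS subunit Vps18 (log2 -0.92) were lower with PA. With BSA, Gnptg was higher (log2 0.50) and Gnptab lower (log2 -0.38), both subunits of the enzyme that starts the mannose 6-phosphate tag, and Arl8b, a GTPase that moves lysosomes, was lower (log2 -0.43).

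The relative of Tfeb and Tfe3, Mitf, averaged 0.795 ± 0.229 FPKM in HKO_PA and 1.13 ± 0.198 FPKM in HKO_BSA, against 1.44 ± 0.283 FPKM in Flox_PA and 2.97 ± 0.547 FPKM in Flox_BSA (SD, n = 3 each). It was lower in HKO by -0.89 with BSA (limma adjusted p = 0.000405) and -0.45 with PA (adjusted p = 0.0276). It was also the single gene of these other lists to pass for PA, lower in Flox_PA than in Flox_BSA (log2 -0.70, adjusted p = 0.0218).

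**Figure D5:**
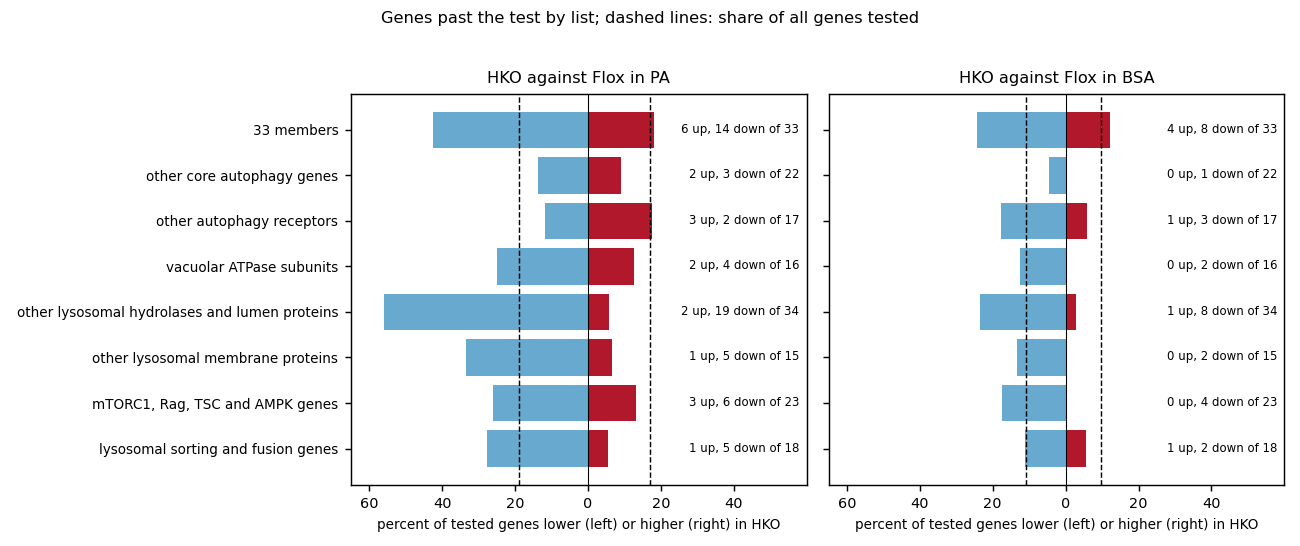
Genes higher and lower in HKO at an adjusted p under 0.05 among the members and in pathway lists, with PA and BSA shown apart. Among the other lysosomal hydrolases and lumen proteins, 19 of 34 tested are lower with PA and 8 with BSA.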

How the data were processed

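The authors deposited 1 table of FPKM per gene for the 12 libraries, with gene lengths and coordinates. Libraries were made from total RNA with an NEBNext Ultra kit, per the labels' protocols, and the build GRCm38 (mm10) is named in the submitters' processing notes. Which aligner, counter, strand setting and annotation were used is not given in the sources here. FPKM times length came to whole multiples of 1 read within 0.01 for 100% of values up to 1000 reads, so reads per gene could be recovered. The library size implied by the FPKM was 13.44 to 17.26 M in HKO and 16.91 to 19.14 M in Flox. Reads in genes were 15.02 to 18.42 M in HKO and 16.21 to 17.64 M in Flox. The FPKM thus carry a scaling other than to reads in genes, and its rule is not known here.

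Groups were taken from the labels. One limma model (limma 3.58.1, R 4.3.3, variance prior with a trend) with 4 group means was fitted to log2(FPKM + 1) for the 9743 genes that averaged 1 FPKM or more, with 8 residual degrees of freedom before the prior. A fold on this scale understates the change of genes near 1 FPKM. The 5 comparisons were two-sided, with p-values adjusted by Benjamini-Hochberg over all genes tested. The test was checked on simulated data in which a gene had the same spread in all groups. A library's median absolute log2 difference from the rest of its group was 0.151 to 0.317 in HKO and 0.0897 to 0.129 in Flox. The check therefore does not cover unequal spread between groups. Alternatives covered the pseudocount, the filter, scaling, samples in the fit, blocks, weights, gene length, limma-voom on the recovered reads and leaving out each library.

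The members and lists were chosen with earlier results of these data known. Members past the threshold with 1 of the 8 widest changes of a comparison, the 3 with the highest means, and Tfeb, Tfe3, Mcoln1 and Sqstm1 are given library by library; of each other list, up to 3 genes per comparison are named by size of change, except 1 gene that is not reported here. Promoters are from the RefSeq table of build GRCm38.p6. Figures were drawn with matplotlib 3.10.9.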

Additional observations from a re-analysis of the deposited data

Results flagged for a closer look

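In the main fit the PA effect on Ulk1 differed between the genotypes, with a log2 value of -1.61 for the effect in HKO minus that in Flox (limma adjusted p = 0.0234). The call was kept in 5 of the 12 fits that left out 1 library. It was lost with no filter and with either replicate block (adjusted p up to 0.196). Ulk1 fell with PA in HKO (log2 -1.04), and its value in Flox was 0.57 (adjusted p = 0.167). No group has 4 or more libraries, so single libraries were not tested for standing apart in 1 gene.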

How the results depend on the processing

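Over the members' values and alternatives, 3002 kept their side of the threshold, with their direction where they had passed, 98 came to pass, 103 no longer passed and 1 reversed, Lamp2 for PA in HKO, at -0.52 (adjusted p = 0.0194) without both HKO libraries numbered 1. For PA in Flox, the 1 member called became 0 with a pseudocount of 0.1 (142 of all 9743 genes) or with limma-voom (137 of all genes). With no filter the count was 0 too (237 of 23820 genes). It was 10 with only the groups compared (1543 of all genes) and 11 without both HKO libraries numbered 1 (1356 of all genes). Array weights per gene gave 14 (3641 of all genes). Every fit without a single library called 0, with 64 to 169 of all genes called. For PA in HKO, the 2 called became 1 with no filter (144 of 23820 genes) and 0 with only the groups compared (42 of all genes). They became 5 with array weights (1532 of all genes), and 1 to 6 without single libraries. The 6 came without HKO_PA 3, where 776 of all genes were called. Fits with 1 member called had 129 to 167 of all genes. For HKO against Flox with BSA, the 12 called became 19 without both HKO libraries numbered 1 (3579 of all genes) and 25 with array weights (5764 of all genes). Without single libraries they were 7 (HKO_BSA 3 left out, 1393 of all genes) to 15 (HKO_BSA 1 left out, 2376 of all genes). With PA, the 20 called became 14 (HKO_PA 1 left out, 2409 of all genes) to 21 (HKO_PA 3 left out, 4203 of all genes). The interaction's 1 call became 0 with no filter (27 of 23820 genes) and 11 with array weights (1668 of all genes). Without single libraries 0 to 2 were called, the 2 without HKO_PA 3 (265 of all genes).

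Same-numbered libraries did not deviate together in every pair (correlations of -0.48 to 0.36). For Flox_PA and Flox_BSA number 3 the correlation was 0.316, against at most -0.145 with other numbers. For HKO_PA and HKO_BSA number 3 it was -0.484, against up to 0.385. Such correlations cannot decide whether the numbers mark a pairing or a batch, so blocked fits are given beside the main one. With the replicate number as a block, the members called were 0 for PA in Flox (168 of all 9743 genes) and 2 for PA in HKO (224 of all genes). They were 12 and 19 for HKO against Flox with BSA and PA (1988 and 3444 of all genes), and 0 for the interaction (15 of all genes). With genotype and number as the block, they were 0 for PA in Flox (110 of all genes), 0 for PA in HKO (113 of all genes) and 0 for the interaction (3 of all genes).

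Over all genes, the calls ranged from 64 to 3641 for PA in Flox, 42 to 1532 for PA in HKO, 1062 to 5764 and 2280 to 5004 for HKO against Flox with BSA and PA, and 0 to 1668 for the interaction. Limma-voom moved the median of all genes to -0.13 with BSA and -0.16 with PA in HKO against Flox. It called 2 members higher and 11 lower with BSA, where 528 of all 9743 genes were higher and 1470 lower. With PA it called 5 members higher and 18 lower, where 1118 of all genes were higher and 2554 lower. The filter at 5 FPKM left 27 members tested. Where limma called 0 members, 4 to 11 had an unadjusted p under 0.05. The share of all genes under that cut is not given here, so these counts show nothing particular to the members. The causes were not tested.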

Other observations

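In HKO against Flox with PA, the median length in the deposited table was 4420 bases for the 6 higher members and 4094 bases for the 14 lower. It was 4368 bases for the 13 that did not pass. Some calls changed side in the fit with the length trend removed, and each of these also changed side under other alternatives. Whether length was the reason was not tested. With the length trend removed, 18 members passed with PA, where 3381 of 9743 genes did. Atg9a (limma adjusted p = 0.0774) and Wipi2 (adjusted p = 0.11) were lost. With BSA, Gabarapl2 was lost (adjusted p = 0.0827) and Ctsd came to pass (adjusted p = 0.00412). Of the 5 members with TCACGTGA in the promoter, Ctsa and Ctsd were lower in HKO with PA, Ctsa and Gla were lower with BSA, and Atg3 and Mcoln1 passed in no comparison.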
